A study of Mus musculus with 32 samples.

Results

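The genes described here are 9 members of the fibroblast growth factor (FGF) pathway, namely the ligand genes Fgf1, Fgf2 and Fgf10, the receptor genes Fgfr1, Fgfr2 and Fgfr3, and the Sprouty genes Spry1, Spry2 and Spry4. They were chosen by gene symbol, and all 9 were found among the 27998 genes of a matrix of counts from single cells. The cells came from the median eminence (ME) of mice, the region at the base of the hypothalamus where brain and blood exchange hormones and nutrients. The study asked which cells the ME holds and how their RNA differs between fasting and refeeding. It used C57B/L6 mice aged 40 to 47 days with no named transgene or allele, 5 of them fasted overnight for 16 h and 5 given normal chow for 1 h after the same fast. For its mice in general the study states males. The ME was digested with papain, triturated and sorted for live nucleated cells, with the mice of each condition pooled, and each pool was loaded on 2 libraries of droplet-based 3′ chemistry, in which a captured transcript is counted once by its unique molecular identifier (UMI). Each condition is therefore 1 pool of animals.

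The matrix held 5982 cells with 29288898 UMIs, a median of 3837 UMIs and 1853 genes per cell and a range of 1533 to 25054 UMIs. Cell barcodes carried a number from 1 to 4, with 6508038 to 7806887 UMIs each, which nothing in the labels, the matrix or the methods ties to a library or a condition. All cells were therefore taken as 1 sample in which fasted and refed mice are mixed, no comparison between the conditions and no test was made, and values for the 4 barcode numbers are set side by side only to show how far parts of the data differ. Of the barcode sequences, 21 occurred under more than 1 number, in 42 cells. Cells fell into 23 clusters in which the 9 genes had no say, and 21 clusters took a name from 13 lists of marker genes, with thresholds set after the data had been seen. The names mean cells that resemble a type. There were 1444 tanycyte-like cells, 1421 astrocyte-like cells, 666 cells like mature oligodendrocytes (MOL-like), 508 neuron-like cells, 403 microglia-like cells, 311 cells like oligodendrocyte progenitor cells (OPC-like), 268 cells like vascular and leptomeningeal cells (VLMC-like), 201 ependymocyte-like cells, 151 macrophage-like cells, 129 cells like differentiating OPCs (diffOPC-like), 88 pars tuberalis-like, 84 endothelial-like and 75 mural-like cells. Every marker was highest in its own type, save 1 of the 8 markers of diffOPC-like cells. Expression in a type is the summed UMIs of the gene per 1e+06 UMIs of the type (CPM), and ranges after a CPM are exact Poisson intervals at the 95% level, which cover counting error only.

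FGFs are secreted proteins that bind receptor tyrosine kinases at the cell surface together with heparan sulfate chains, and the receptors signal through RAS and MAP kinases. Signalling turns on transcription factors of the ETS family such as Etv4 and Etv5 and also its own inhibitors, among them the Sprouty proteins, the Spred proteins and the phosphatase Dusp6. In the hypothalamus Fgf10 is known from tanycytes, the elongated glia that line the floor of the third ventricle, FGF1 is known for its effects on feeding and glucose when given to the brain, and FGF2 is a classical mitogen of OPCs.

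On the mm10 genome, Fgf2 (ENSMUSG00000037225) lies at chr3:37348346-37410108, Spry1 (ENSMUSG00000037211) at chr3:37639947-37644598, Fgfr3 (ENSMUSG00000054252) at chr5:33721674-33737068, Fgfr1 (ENSMUSG00000031565) at chr8:25513654-25575718 and Fgf10 (ENSMUSG00000021732) at chr13:118669791-118792115, all on the plus strand. On the minus strand are Fgfr2 (ENSMUSG00000030849), which spans chr7:130162451-133123350 in the GENCODE annotation, and Spry2 (ENSMUSG00000022114) at chr14:105891947-105896819. Fgf1 (ENSMUSG00000036585) and Spry4 (ENSMUSG00000024427) are minus-strand genes as well. On its own strand Fgf2 overlaps exons of Gm43439, and the long Fgfr2 annotation those of Ctbp2, so a read there could fit either gene. How such reads were counted is not given in the sources used here. Fgf2 also overlaps Nudt6 on the opposite strand. Over all cells, Fgfr3 had 2622 UMIs, Fgfr1 1800, Spry2 1606, Fgfr2 930, Fgf1 576, Fgf10 415, Spry1 206, Fgf2 114 and Spry4 113. Counts at the 3′ end do not tell splice forms of the receptors apart.

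All 3 Sprouty genes were lower in diffOPC-like than in OPC-like cells, as described further on, and for Spry1 and Spry2, which had the most UMIs of them, the 250 bases before their starts are shown for that reason. Both are from RefSeq on GRCm38.p6, at chr3:37639697-37639946 on the plus strand and at chr14:105896820-105897069 on the minus strand, written 5′ to 3′ with GC boxes (GGGCGG, either strand) in capitals.
Spry1: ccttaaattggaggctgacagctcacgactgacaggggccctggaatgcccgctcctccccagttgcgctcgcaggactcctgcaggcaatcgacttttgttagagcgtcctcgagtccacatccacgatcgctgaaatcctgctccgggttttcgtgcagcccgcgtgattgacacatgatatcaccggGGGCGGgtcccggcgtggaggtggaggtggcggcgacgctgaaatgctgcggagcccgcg
Spry2: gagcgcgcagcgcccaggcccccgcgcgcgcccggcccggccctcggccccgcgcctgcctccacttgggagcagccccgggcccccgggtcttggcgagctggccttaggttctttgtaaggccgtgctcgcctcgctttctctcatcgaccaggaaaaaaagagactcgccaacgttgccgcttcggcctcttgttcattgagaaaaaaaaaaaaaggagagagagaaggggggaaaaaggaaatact
The Spry1 stretch holds 1 GC box and that of Spry2 none, and 32.7% of 32851 RefSeq promoters of the same length hold at least 1. Starts of 6 of the 9 genes were in the promoter table. Over either strand, none of these promoters held the letters of an ETS site (CCGGAA, in 12% of all promoters), of an AP-1 site (TGANTCA, 6.75%) or of a cAMP response element (TGACGTCA, 1.55%). With 1 match in the stretches shown, no matches overlap there, and a match is a description of the sequence.

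**Figure D1:**
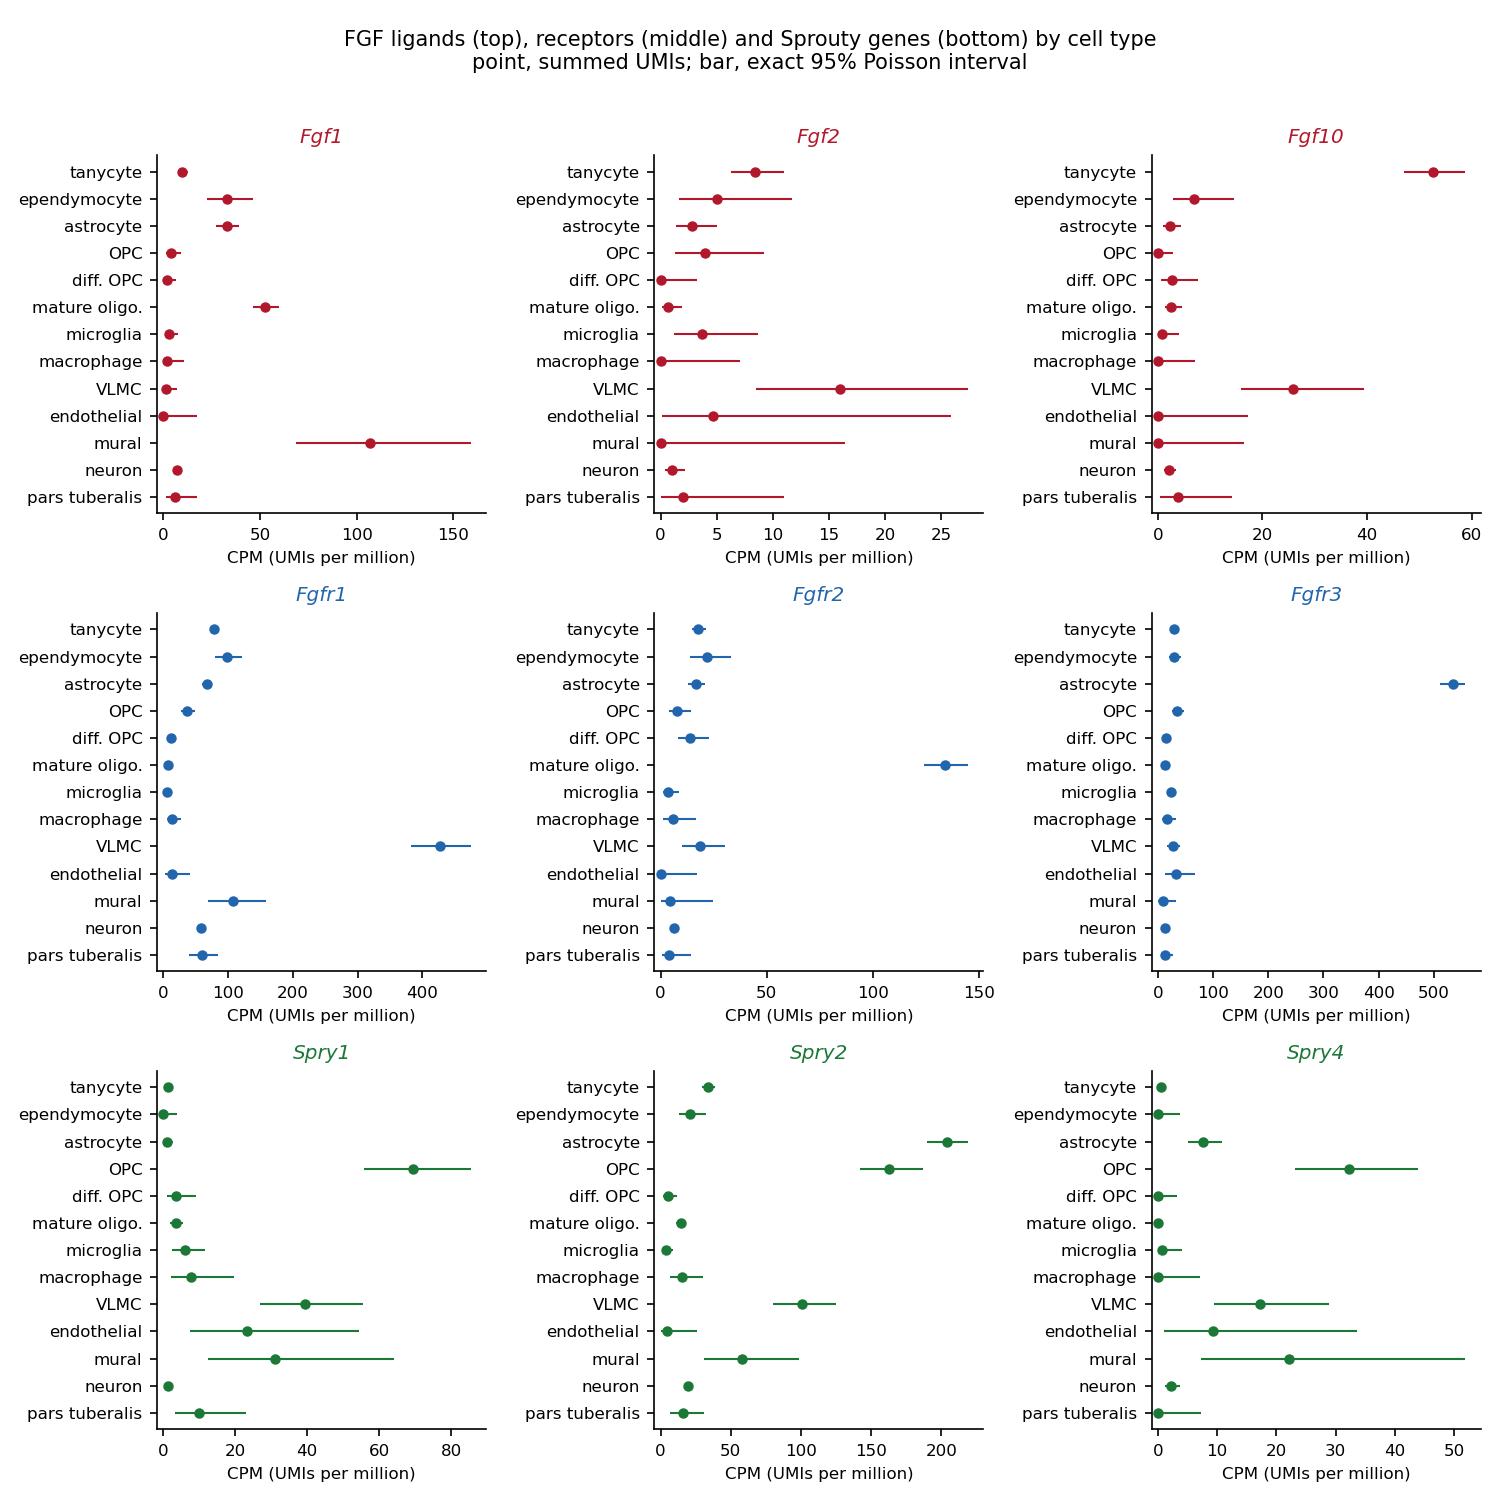
CPM of each of the 9 genes (one panel per gene, linear axis from 0) in the 13 cell types, with exact Poisson intervals at the 95% level as error bars. Fgf10 stood highest in tanycyte-like cells (52.7 CPM), Fgfr1 in VLMC-like cells (427 CPM), Fgfr2 in MOL-like cells (134 CPM) and Fgfr3 in astrocyte-like cells (534 CPM), while Spry1 and Spry4 were highest in OPC-like cells and Spry2 in astrocyte-like and OPC-like cells.

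Fgf10 encodes a secreted ligand and was mainly a gene of tanycyte-like cells, which held 326 of its 415 UMIs (78.6%). In barcode numbers 1 to 4, tanycyte-like cells had 58.7, 52.3, 52.3 and 46 CPM of Fgf10 and VLMC-like cells, the next highest type, 20.4, 29.4, 31.3 and 21.2 CPM. Every tanycyte value lay above every VLMC value. Pooled, the levels were 52.7 CPM (47.1 to 58.8) and 25.9 CPM (16 to 39.5), a ratio of 2.04 (exact interval 1.31 to 3.34), and the VLMC-like level was in turn 3.69 times the 7.01 CPM (2.82 to 14.5) of ependymocyte-like cells. No other type passed 3.94 CPM, and OPC-like, macrophage-like, endothelial-like and mural-like cells had no Fgf10 UMI. A UMI of Fgf10 was found in 18.2% of tanycyte-like cells (median 4169 UMIs per cell), and in 4.92% once each cell was thinned to 1000 UMIs. RNA set free in the suspension adds stray UMIs to cells of any type, and in neuron-like cells, with a median of 13412 UMIs, the shares were 2.56% and 0.787%.

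Fgf1 encodes a ligand that leaves cells without a signal peptide and binds all FGF receptors, and it had a different spread. Mural-like cells, the contractile cells of vessel walls, had 56.4, 123, 84.5 and 153 CPM of Fgf1 in numbers 1 to 4, from 3, 5, 5 and 11 UMIs. MOL-like cells, which make myelin, had 35.8, 62.1, 50 and 64.5 CPM. The mural-like cells were above the MOL-like cells within each number, but the ranges over the numbers overlapped. Pooled, mural-like cells had 107 CPM (68.4 to 159) and MOL-like cells 52.7 CPM (46.3 to 59.7), a ratio of 2.03 (1.27 to 3.09), and the 243 UMIs of MOL-like cells were 42.2% of all Fgf1 UMIs. Ependymocyte-like cells (33.1 CPM) and astrocyte-like cells (32.8 CPM) were close together and not separated by their intervals, and astrocyte-like cells were 3.33 times above tanycyte-like cells (9.86 CPM). OPC-like cells had 3.94 CPM (5 UMIs), diffOPC-like cells 1.76 CPM (2 UMIs) and endothelial-like cells none, which at their depth allows up to 17.2 CPM.

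Within MOL-like cells, Fgf1 differed between clusters. The cluster of 551 cells led by Ptgds had 59.6 CPM (51.5 to 68.5), the cluster of 83 cells led by Mag 19.2 CPM (11.5 to 29.9), and the 32 cells led by Klk6, a protease gene of oligodendrocytes, 84.2 CPM (55.9 to 122). The Mag-led cells were thus lower than both others, whose intervals overlapped. A UMI of Fgf1 was present in 29.3% of mural-like and 27.5% of MOL-like cells, and in 10.7% and 4.8% after thinning, against 0.744% of microglia-like cells (median 3080 UMIs per cell) before it and 0.496% after.

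Fgf2, the gene of basic FGF, was scarce. VLMC-like cells had 10.2, 24.5, 17.9 and 10.6 CPM of Fgf2 in numbers 1 to 4, and tanycyte-like cells 9.43, 7.28, 9.65 and 7.23 CPM. The VLMC values all lay above the tanycyte values but came from 2 to 5 UMIs each, and the pooled 16 CPM (8.52 to 27.4) rested on 13 UMIs. Its ratio to the 8.41 CPM (6.28 to 11) of tanycyte-like cells was 1.9, with an interval of 0.951 to 3.54 that includes 1. Tanycyte-like cells held 52 of the 114 UMIs (45.6%). From VLMC-like cells down to those at 0 (diffOPC-like, macrophage-like and mural-like), no type was separated from the next by its interval. Nudt6, which is read from the opposite strand, stood at 11.8 CPM for tanycyte-like, 7.39 CPM for VLMC-like and 14.9 CPM for microglia-like cells, an order unlike that of Fgf2. At 4.85% of VLMC-like cells with a UMI, against 1.24% of microglia-like cells, Fgf2 is close to what counts of this depth can show.

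Among the receptors, Fgfr1 marked the VLMC-like cells, which are fibroblast-like cells of vessels and meninges. They had 516, 437, 411 and 344 CPM in numbers 1 to 4, and mural-like cells, the next type, had 94, 49.2, 118 and 139 CPM. The ranges lay far apart. Pooled, VLMC-like cells had 427 CPM (383 to 475) of Fgfr1, 4 times (2.65 to 6.33) the 107 CPM (68.4 to 159) of mural-like cells. Mural-like, ependymocyte-like (99.2 CPM), tanycyte-like (78.8 CPM), astrocyte-like (67.2 CPM), pars tuberalis-like (59.1 CPM) and neuron-like cells (58.7 CPM) formed a row in which the intervals of neighbours overlapped, although the ratio of tanycyte-like to astrocyte-like cells, 1.17 (1.01 to 1.37), excluded 1, and neuron-like cells were 1.58 times above OPC-like cells (37.1 CPM). Lowest were diffOPC-like (11.5 CPM), MOL-like (7.15 CPM) and microglia-like cells (5.2 CPM). Of VLMC-like cells, 66.4% had an Fgfr1 UMI and 35.1% after thinning, against 1.49% and 0.496% of microglia-like cells.

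Fgfr2 was highest in MOL-like cells, with 126, 123, 140 and 145 CPM in numbers 1 to 4 and 620 of all 930 UMIs (66.7%). Ependymocyte-like cells, the next type, had 9.86, 21.9, 28.9 and 23.8 CPM, well below each MOL value. The pooled 134 CPM (124 to 145) of MOL-like cells was 6.1 times (3.99 to 9.8) the 22 CPM (13.8 to 33.4) of ependymocyte-like cells, which did not separate from VLMC-like (18.5 CPM), tanycyte-like (17.9 CPM) or astrocyte-like cells (16.5 CPM). All 3 MOL-like clusters held Fgfr2 at like levels, 143 CPM in the Ptgds-led, 113 CPM in the Mag-led and 117 CPM in the Klk6-led cells. DiffOPC-like cells had 14.1 CPM (8.06 to 22.9) from 16 UMIs, of which 10 were in number 3 and 7 in 1 cell, and OPC-like cells 7.89 CPM (3.78 to 14.5). An Fgfr2 UMI was present in 58.6% of MOL-like cells (median 6150 UMIs), in 12.6% after thinning, and in 1.24% of microglia-like cells and none after thinning.

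Fgfr3, a known gene of astrocytes, was highest in astrocyte-like cells, which held 2097 UMIs or 80% of the total. Their values in numbers 1 to 4 were 540, 593, 517 and 475 CPM of Fgfr3, against 31.6, 49.3, 33.9 and 26.5 CPM in OPC-like cells, the next type. The pooled 534 CPM (511 to 557) was 15 times (11.2 to 20.7) the 35.5 CPM of OPC-like cells. Endothelial-like (32.6 CPM), ependymocyte-like (29.1 CPM), tanycyte-like (28.8 CPM), VLMC-like (27.1 CPM) and microglia-like cells (23.8 CPM) followed, with no neighbours separated. Fgfr3 UMIs were present in 73.3% of astrocyte-like cells (median 2665 UMIs), 40.3% after thinning, and in 5.96% and 1.74% of microglia-like cells. In microglia-like cells the level of Fgfr3 was 4.46% of that in astrocyte-like cells, and 8 astrocyte marker genes had a median of 2.13% (1.63% to 2.65%) by the same measure. Fgfr3 thus stood above all 8 markers in microglia-like cells, as it did in OPC-like, macrophage-like, endothelial-like and mural-like cells. In the other types it lay within their range. In OPC-like cells the margin was small, 6.65% against at most 6.44% for a marker. The mural-like value came from 2 UMIs, the macrophage-like value from 9, and the endothelial-like value from 7, of which 5 were in 1 cell. The part of free RNA in these low values was not tested. For Spry2 the same share was 1.82%, within the range of the markers.

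**Figure D2:**
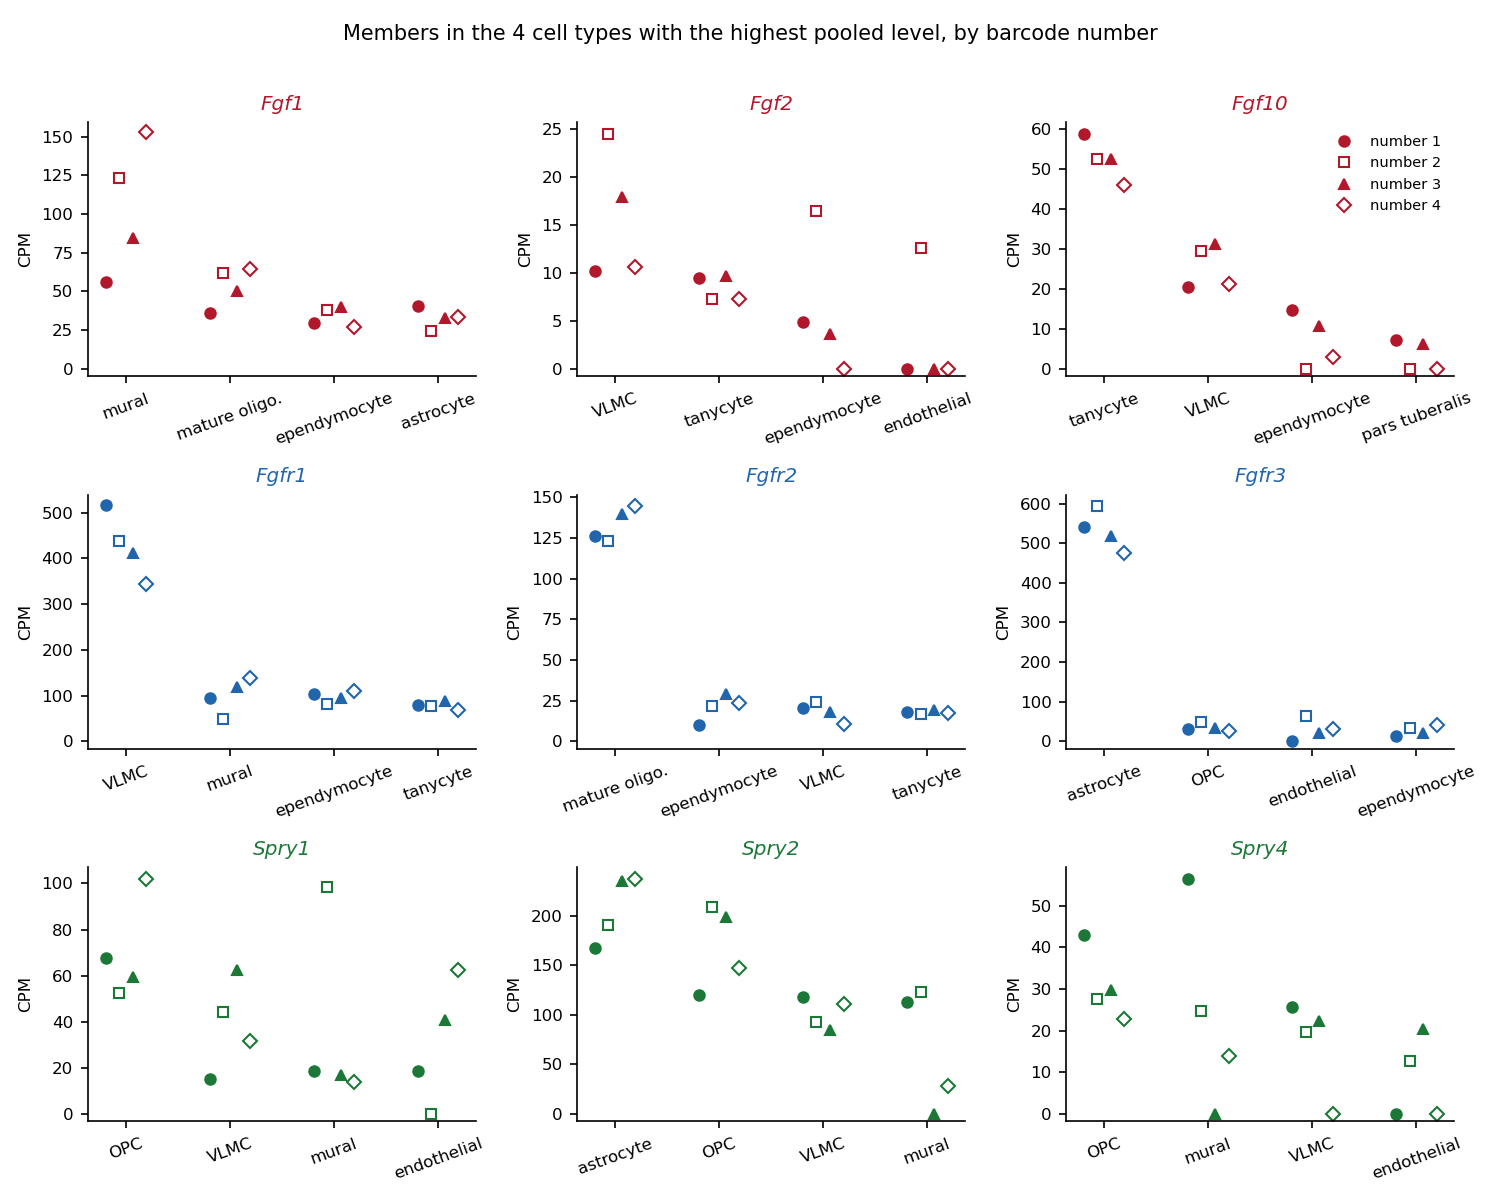
CPM of each of the 9 genes in its 4 highest cell types, with 1 point for each of the barcode numbers 1 to 4, which are not tied to a condition. For Fgf2, Fgf10, Fgfr1, Fgfr2 and Fgfr3 all 4 points of the highest type lie above all points of the next type, those of Fgf2 from 2 to 5 UMIs each, and for Fgf1, Spry1, Spry2 and Spry4 the points of the leading types overlap.

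Sprouty genes were spread over glial and vascular types. Spry1 had 67.8, 52.3, 59.3 and 102 CPM in OPC-like cells of numbers 1 to 4, and 15.3, 44.2, 62.5 and 31.8 CPM in VLMC-like cells. The ranges overlapped, with VLMC-like cells above OPC-like cells in number 3 and mural-like cells above both in number 2 (98.4 CPM from 4 UMIs). Pooled, OPC-like cells had 69.4 CPM (55.7 to 85.5) of Spry1 and VLMC-like cells 39.4 CPM (26.9 to 55.6), a ratio of 1.76 (1.16 to 2.73), followed by mural-like (31.1 CPM, 7 UMIs) and endothelial-like cells (23.3 CPM, 5 UMIs). Tanycyte-like cells had 1.29 CPM, astrocyte-like cells 1.02 CPM (4 UMIs) and ependymocyte-like cells none, which allows up to 3.7 CPM. A Spry1 UMI was present in 25.1% of OPC-like cells and in 7.72% after thinning, against 1.77% and 0.591% of neuron-like cells. Among microglia-like cells, 6 of the 8 Spry1 UMIs were in a cluster of 48 cells led by Ccl4 (33.7 CPM, 12.4 to 73.4). Immediate early and dissociation response genes summed to 25780 CPM in that cluster and to 1539 CPM in the other microglia-like cells. Their part in this Spry1 value was not tested.

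Spry2 was highest in astrocyte-like and in OPC-like cells, which held 49.9% and 12.9% of its 1606 UMIs. Astrocyte-like cells of numbers 1 to 4 had 167, 190, 235 and 237 CPM of Spry2, and OPC-like cells 120, 209, 199 and 147 CPM. The ranges overlapped, and OPC-like cells were higher in number 2. Pooled, 204 CPM (190 to 219) stood against 163 CPM (142 to 187), a ratio of 1.25 (1.07 to 1.46), before 101 CPM (80.3 to 125) in VLMC-like, 57.8 CPM in mural-like and 33.6 CPM in tanycyte-like cells. Without a cluster of Spry2-high cells described further on, astrocyte-like cells had 85.6 CPM, below OPC-like cells. DiffOPC-like cells had 5.29 CPM (6 UMIs) and microglia-like cells 3.72 CPM (5 UMIs). Shares of cells with a Spry2 UMI were 29.5% and 33.1% in astrocyte-like and OPC-like cells and 15.4% in both after thinning, with 0.744% and none in microglia-like cells.

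Spry4 was rarer and had 42.9, 27.7, 29.7 and 22.7 CPM in OPC-like cells of numbers 1 to 4. Mural-like cells had 56.4, 24.6, 0 and 13.9 CPM of Spry4, each from 3 UMIs or fewer, so that mural-like cells were higher in number 1 alone. The pooled 32.3 CPM (23.2 to 43.9) of OPC-like cells did not separate from mural-like (22.2 CPM, 5 UMIs) or VLMC-like cells (17.2 CPM, 14 UMIs) and was 4.24 times (2.58 to 7.03) the 7.63 CPM of astrocyte-like cells. None of 666 MOL-like, 129 diffOPC-like, 201 ependymocyte-like, 151 macrophage-like or 88 pars tuberalis-like cells held a Spry4 UMI. A UMI was found in 11.3% of OPC-like cells, 2.57% after thinning, and in 2.95% of neuron-like cells, none after thinning.

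In vascular cells the level of immediate early and dissociation response genes differed between barcode numbers, and Spry2 values are given beside it. The summed level of these genes, such as Fos and Junb, was 1574, 2552, 6786 and 6730 CPM in VLMC-like cells of numbers 1 to 4, and 1824, 1329, 5743 and 4352 CPM in mural-like cells. Spry2 in the same VLMC-like cells was 118, 93.2, 84.8 and 111 CPM, and in mural-like cells 113, 123, 0 and 27.8 CPM. The order of the numbers by Spry2 was unlike that by the early response sum in VLMC-like cells. Spry1 in VLMC-like cells, given above, was lowest and highest in the same numbers as that sum. Neither relation was tested. In mural-like cells Spry2 was higher in the 2 numbers with less early response RNA, from 13 UMIs in all, and its relation to that RNA was not tested. In OPC-like cells the early response sum was 1315, 1281, 1077 and 1024 CPM and in astrocyte-like cells 378, 368, 432 and 395 CPM.

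Against all other cells pooled, a gene was called higher or lower past 2 units of log2(CPM + 10), among 13953 genes with at least 50 UMIs. The clusters were made from the same cells, so these calls describe the types and are no test. Percentages give the share of all tested genes called in that direction. Fgf10 was higher in tanycyte-like cells (0.523%) and no member lower (2.3%), and Fgfr3 and Spry2 were higher in astrocyte-like cells (1.64%) and none lower (3.04%). Spry1 was higher in OPC-like cells (1.39%) and none lower (2.11%), and Fgfr1 was higher in VLMC-like cells (2.34%) and none lower (3.56%). MOL-like cells were higher for Fgfr2 (2.04%) and lower for Fgfr1 and Fgfr3 (4.83%), and mural-like cells higher for Fgf1 (2.5%) and lower for Fgfr3 (4.82%). With no member on the higher side, Fgfr3 and Spry2 were lower in diffOPC-like cells (3.5%, and 1.43% higher), Fgfr1 and Spry2 in microglia-like cells (5.4%, and 3.41% higher), Fgfr2 and Spry2 in endothelial-like cells (5.03%, and 3.06% higher), and Fgfr3 in neuron-like cells (3.39%, and 2.51% higher) and in pars tuberalis-like cells (2.03%, and 0.552% higher). Some of the lower calls rested on few UMIs. In endothelial-like cells they came from 0 UMIs of Fgfr2 (up to 17.2 CPM) and 1 of Spry2 (up to 25.9 CPM). The Fgfr3 calls in mural-like and pars tuberalis-like cells came from 2 and 7 UMIs. No member passed in macrophage-like cells (3.01% of genes higher and 6.19% lower) or in ependymocyte-like cells (2.93% and 2.24%). Every one of the 9 genes but Fgf2 and Spry4 was called higher in exactly 1 type. Fgf2, at no more than 16 CPM in any type, could not be called higher with 10 CPM added.

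Along the oligodendrocyte lineage, OPCs become differentiating OPCs and then mature oligodendrocytes, and the FGF genes were compared between these stages. From OPC-like to diffOPC-like cells, all 3 Sprouty genes were lower. Spry2 went from 163 to 5.29 CPM (a log2 difference of -3.50 with the pseudocount), Spry1 from 69.4 to 3.52 CPM (-2.55) and Spry4 from 32.3 CPM to no UMI (-2.08), at least 12.2-fold lower at a floor of 3 counts. They were 3 of 9 members past the threshold on the lower side, against 2.04% of all genes, and no member passed on the higher side, against 1.02%. In each barcode number, diffOPC-like cells had at most 3 UMIs of Spry2, 1 of Spry1 and 0 of Spry4, and the highest diffOPC value of Spry2 (12.7 CPM) and of Spry1 (4.25 CPM) lay below the lowest OPC values (120 and 52.3 CPM). Receptor genes differed less, with log2 differences of -1.13 for Fgfr1, -0.92 for Fgfr3 and 0.43 for Fgfr2, none past the threshold. Without the pseudocount, OPC-like cells were 3.24 times (1.72 to 6.52) above diffOPC-like cells for Fgfr1 and 2.52 times (1.4 to 4.77) for Fgfr3. For Fgfr2, diffOPC-like cells were 1.79 times above OPC-like cells, with an interval of 0.762 to 4.4 that includes 1. Median depth was 4025 UMIs in OPC-like and 8604 UMIs in diffOPC-like cells, the reverse order of the Sprouty levels.

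Other genes of the pathway's own feedback list went the same way as the Sprouty genes. Of 13 tested, 5 were lower in diffOPC-like cells and none higher, and the median log2 difference was -1.30, against -0.15 over all genes. Etv5 went from 153 to 0.881 CPM, Etv4 from 132 to 1.76 CPM and Dusp6, the phosphatase of ERK, from 104 to 0.881 CPM. Spred2, which blocks RAF activation, had 33.9 CPM in OPC-like cells and no UMI in diffOPC-like cells, and Etv1 went from 155 to 17.6 CPM. Spred1 (133 and 57.3 CPM) and Flrt1 (177 and 69.6 CPM), which encodes a transmembrane partner of FGF receptors, did not pass. Of 17 genes for heparan sulfate proteoglycans and their enzymes, Sdc3 (212 to 12.3 CPM) and Gpc5 (166 to 10.6 CPM) were lower, and of 18 adaptor and MAP kinase genes only Mapk3, which encodes ERK1, was called, with 19.7 CPM in OPC-like and 152 CPM in diffOPC-like cells. Immediate early and dissociation response genes were lower too, in 6 of 14 tested with a median log2 difference of -1.45, and their part in these differences was not tested.

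Against MOL-like cells, OPC-like cells were higher for Spry2 (163 against 14.5 CPM, a log2 difference of 2.82), Spry1 (69.4 against 3.47 CPM, 2.56) and Spry4 (32.3 CPM against no UMI, 2.08), at least 49.7-fold for Spry4 at the floor of 3 counts. That made 3 of 9 members past the threshold on the higher side, where 4.64% of all genes were, and 2 on the lower side, Fgfr2 (-3.01) and Fgf1 (-2.17), where 2.09% were. Spry2 in MOL-like cells was 21.6, 19.2, 14.5 and 4.67 CPM in numbers 1 to 4, below every OPC value. Fgfr1 (1.46) and Fgfr3 (1.00) did not pass. Among the 13 tested feedback genes, 5 were higher in OPC-like cells, namely Flrt1 (3.94), Etv5 (3.62), Etv4 (3.59), Dusp6 (3.28) and Flrt3 (2.29), and none lower, with a median of 1.84 against 0.36 over all genes. Etv1 went the other way without passing, at 155 CPM in OPC-like and 395 CPM in MOL-like cells. Mapk3 was lower in OPC-like cells (-3.39, 19.7 against 302 CPM), and Sdc3 (4.19), Gpc5 (3.60), Gpc6 (2.81) and Sdc2 (2.43) higher. Sprouty genes also lie downstream of other receptor tyrosine kinases, and of 16 tested genes for such receptors Pdgfra (909 against 4.34 CPM), Ntrk3 (116 against 3.9 CPM) and Ntrk2 (357 against 65.2 CPM) were higher in OPC-like cells and none lower. Pdgfra is among the markers that named the OPC-like cells, so its higher level there follows from the naming. A pseudocount of 1 CPM in place of 10 raised the pathway genes called higher in OPC-like cells from 12 to 27 of 67.

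**Figure D3:**
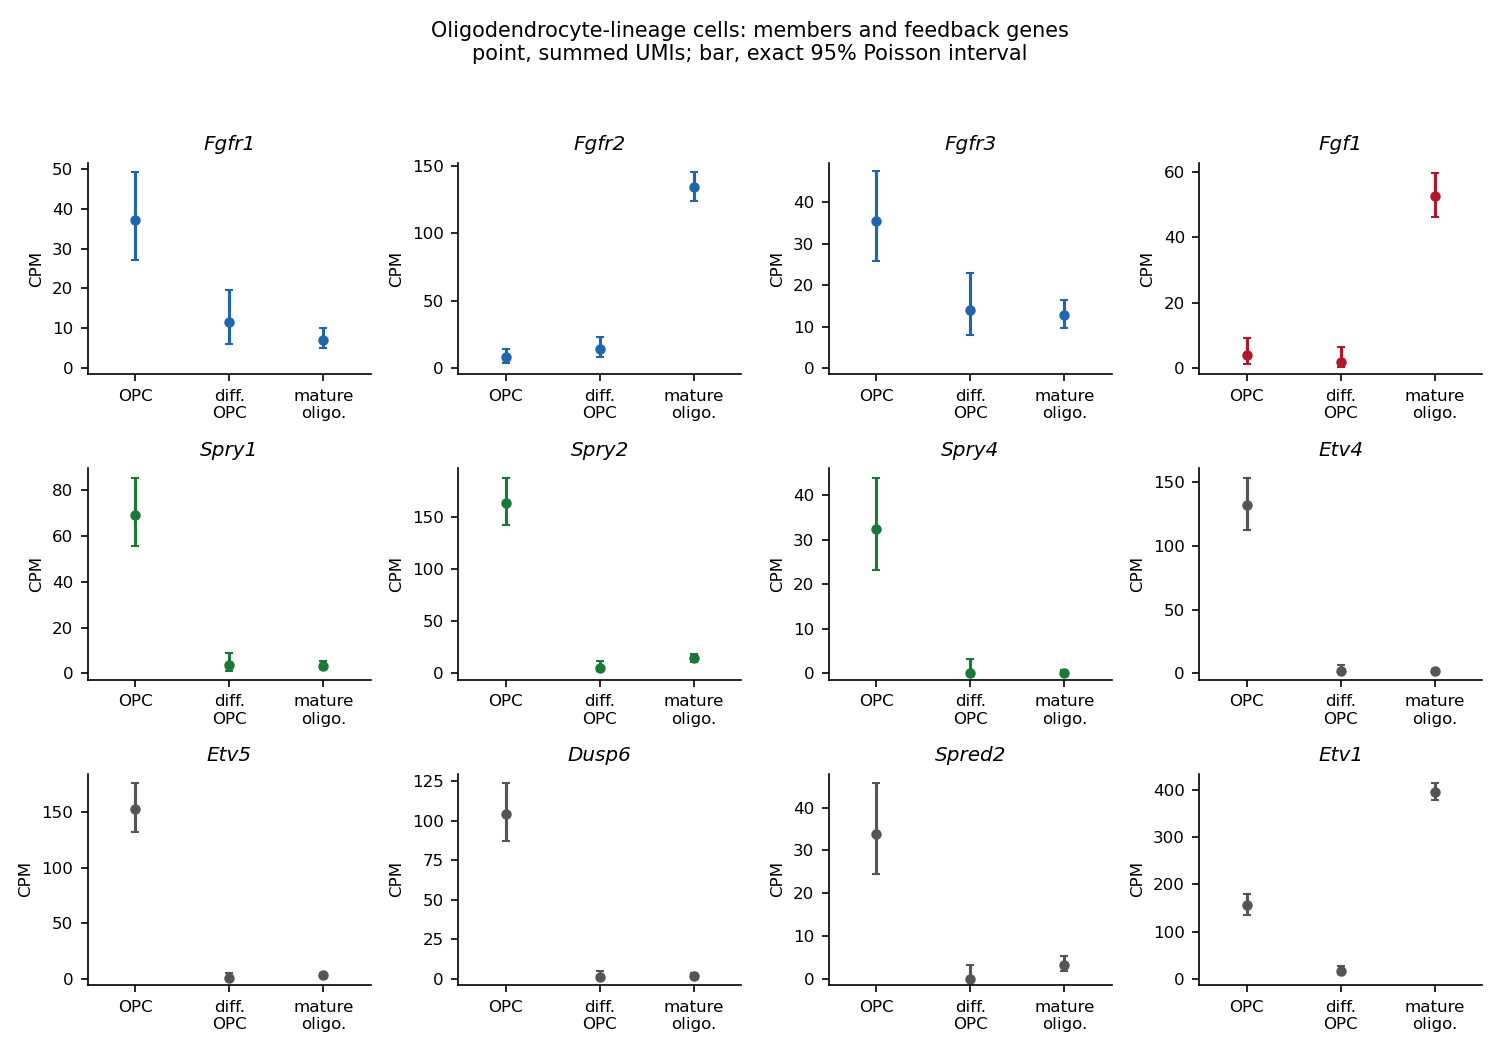
CPM of 7 members and 5 feedback genes in OPC-like, diffOPC-like and MOL-like cells, with exact Poisson intervals at the 95% level. Spry1, Spry2, Spry4, Etv4, Etv5, Dusp6 and Spred2 were highest of the 3 stages in OPC-like cells, Fgfr2 (134 CPM) and Fgf1 (52.7 CPM) were highest in MOL-like cells, and Etv1 was 155, 17.6 and 395 CPM in the 3 stages.

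Astrocyte-like cells and tanycyte-like cells are both glia, and 3 of the 9 genes passed the threshold between them. Fgfr3 (534 against 28.8 CPM, log2 difference 3.81) and Spry2 (204 against 33.6 CPM, 2.29) were higher in astrocyte-like cells, where 1.78% of all genes were, and Fgf10 was lower (2.29 against 52.7 CPM, -2.35), where 1.56% were. In every barcode number the astrocyte value of Fgfr3 and Spry2 was above, and that of Fgf10 below, each tanycyte value. Fgf1 was 1.11 log2 units higher in astrocyte-like cells, a ratio of 3.33 (exact interval 2.44 to 4.59), and did not pass. Fgf2 did not pass either, and was 3 times (1.55 to 6.39) higher in tanycyte-like cells. Spry4 was at 7.63 against 0.485 CPM, from 30 and 3 UMIs, and did not pass. All 13 tested feedback genes had log2 differences above 0, with a median of 0.71 against -0.07 over all genes, but only Lrig1 (163 against 22.3 CPM, 2.42), which encodes an inhibitor of receptor tyrosine kinases, passed the threshold. Etv5 was at 50.6 against 9.22 CPM and Etv4 at 23.2 against 2.59 CPM. Of the proteoglycan genes, Gpc5 was higher in astrocyte-like cells (231 against 2.91 CPM) and Gpc3 lower (7.12 against 215 CPM). Early response genes were lower in astrocyte-like cells, 390 against 1135 CPM in sum, and their part was not tested.

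Tanycyte-like and ependymocyte-like cells both line the ventricle, and none of the 9 genes differed between them past the threshold, where 0.473% of all genes were higher in tanycyte-like cells and 1.75% lower. The widest differences were for Fgf10, 1.88 log2 units higher in tanycyte-like cells (52.7 against 7.01 CPM, a ratio of 7.52 with an interval of 3.61 to 18.8), and Fgf1, -1.12 (9.86 against 33.1 CPM). By number, Fgf10 in ependymocyte-like cells was 14.8, 0, 10.8 and 2.98 CPM, from 3, 0, 3 and 1 UMIs, and lay below every tanycyte value. Fgf7, a ligand related to Fgf10, was lower in tanycyte-like cells (2.43 against 63.1 CPM), as was the sulfatase gene Sulf2 (19.9 against 119 CPM), and Gpc3 was higher (215 against 8.02 CPM).

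Within tanycyte-like cells the FGF genes differed among the 3 clusters. Fgf10 was at 71.6 CPM (59.2 to 85.9) in 358 cells led by Gfap, at 60.9 CPM (51.9 to 70.8) in 588 cells led by Scn7a and Col25a1, and at 24 CPM (17.4 to 32.2) in 498 cells led by Crym. In numbers 1 to 4 the Crym-led cells had 23, 18.7, 35.7 and 20.5 CPM of Fgf10, below all values of the Gfap-led cells (79.4, 71.7, 63.6 and 67.5 CPM) and of the Scn7a-led cells (65.3, 62.9, 58 and 53.7 CPM). Fgfr1 had another order, with 118 CPM (106 to 132) in the Scn7a-led cells, 49 CPM (39.4 to 60.2) in the Crym-led and 45.7 CPM (35.9 to 57.4) in the Gfap-led cells. The Scn7a-led cells had 127, 119, 125 and 96.2 CPM of Fgfr1 in numbers 1 to 4, above the highest value in either other cluster (61.2 CPM). Fgf1 was 19.1 CPM (13 to 27.2) in the Gfap-led cells against 7.7 and 4.9 CPM in the Scn7a-led and Crym-led cells, and Spry2 lay between 25.3 and 41.4 CPM in all 3 clusters. Without the Gfap-led cells, whose leading gene is also an astrocyte gene, Fgf10 in tanycyte-like cells was 46 CPM. The clusters were drawn from the same cells, so these values are a description.

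**Figure D4:**
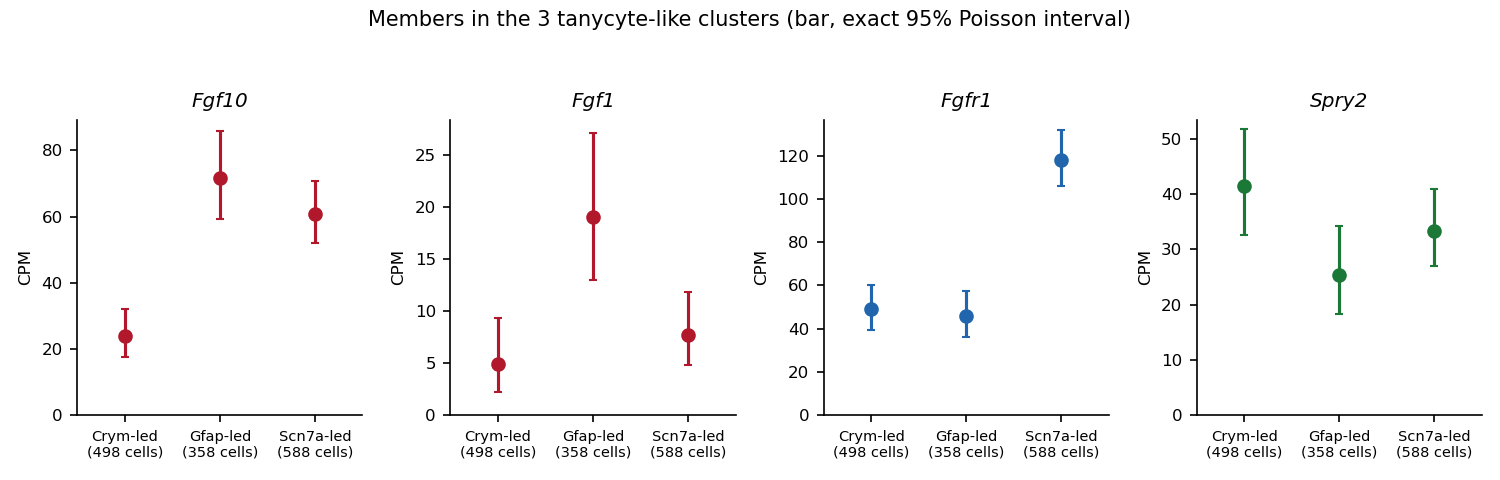
CPM of Fgf10, Fgf1, Fgfr1 and Spry2 in the 3 clusters of tanycyte-like cells, with all barcode numbers pooled, on linear axes from 0, and exact Poisson intervals at the 95% level as error bars. Fgf10 was low in the Crym-led cells (24 CPM) and Fgfr1 high in the Scn7a-led cells (118 CPM).

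Astrocyte-like cells fell into 2 clusters that differed in Spry2, although Spry2 had not been used to form them. The cluster of 358 cells had 412, 547, 658 and 610 CPM of Spry2 in numbers 1 to 4 and 547 CPM pooled (502 to 594), and the other 1063 cells had 86.7, 48.3, 95.5 and 116 CPM and 85.6 CPM pooled (75.3 to 96.9). The ranges did not overlap, and the ratio was 6.39. In the first cluster 36% of cells had no Spry2 UMI and 7.26% had 5 or more, and in the second 82.1% and 0.188%. Median depth was alike, 2762.5 and 2637 UMIs, and after thinning 36% and 8.47% of the cells had a Spry2 UMI.

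Fgfr3 (505 and 543 CPM) and Fgfr1 (66.4 and 67.5 CPM) were at near levels in both clusters, as were the feedback genes Dusp6 (41.6 and 45.2 CPM), Etv5 (52.5 and 50 CPM) and Spred1 (63.4 and 67.5 CPM). None of the 13 tested feedback genes passed the threshold in either direction. Of all genes 0.0502%, which is 7 genes, were higher in the Spry2-high cluster and 0% lower, and these were Spry2 with Notch2, Ttyh2, Slc39a1, Lrrc8a, Sfxn5 and Amt. Notch2 encodes a Notch receptor and was at 291 against 33.6 CPM, and Lrrc8a encodes a subunit of volume-regulated anion channels and was at 1588 against 317 CPM. Sdc4, a heparan sulfate proteoglycan gene, was at 1613 against 627 CPM, below the threshold. Early response genes summed to 398 and 388 CPM. Of thinned astrocyte-like cells, 40.2% of the 219 with a Spry2 UMI and 40.3% of the 1202 without one had an Fgfr3 UMI, whereas for Notch2 it was 21% (15.8% to 27%) and 6.74% (5.39% to 8.31%).

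This split depended on the clustering. It was also found at Leiden resolution 2 (log2 ratio 2.66), with the 9 genes among the variable genes (2.33) and without barcode number 4 (2.78). Thinned cells kept the same 2 clusters, so their log2 ratio of 2.50 cannot show whether the split depends on the clustering. Without number 1 the highest cluster was only 0.70 log2 units above the other, and with the other pathway genes also left out of the clustering 1.16. Only 1 astrocyte-like cluster was formed without number 2, without number 3, by K-means, at Leiden resolution 0.5, without called doublets, with the filter on cells and without the shared barcodes. The clusters are therefore given as a description of how Spry2 counts varied among astrocyte-like cells.

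**Figure D5:**
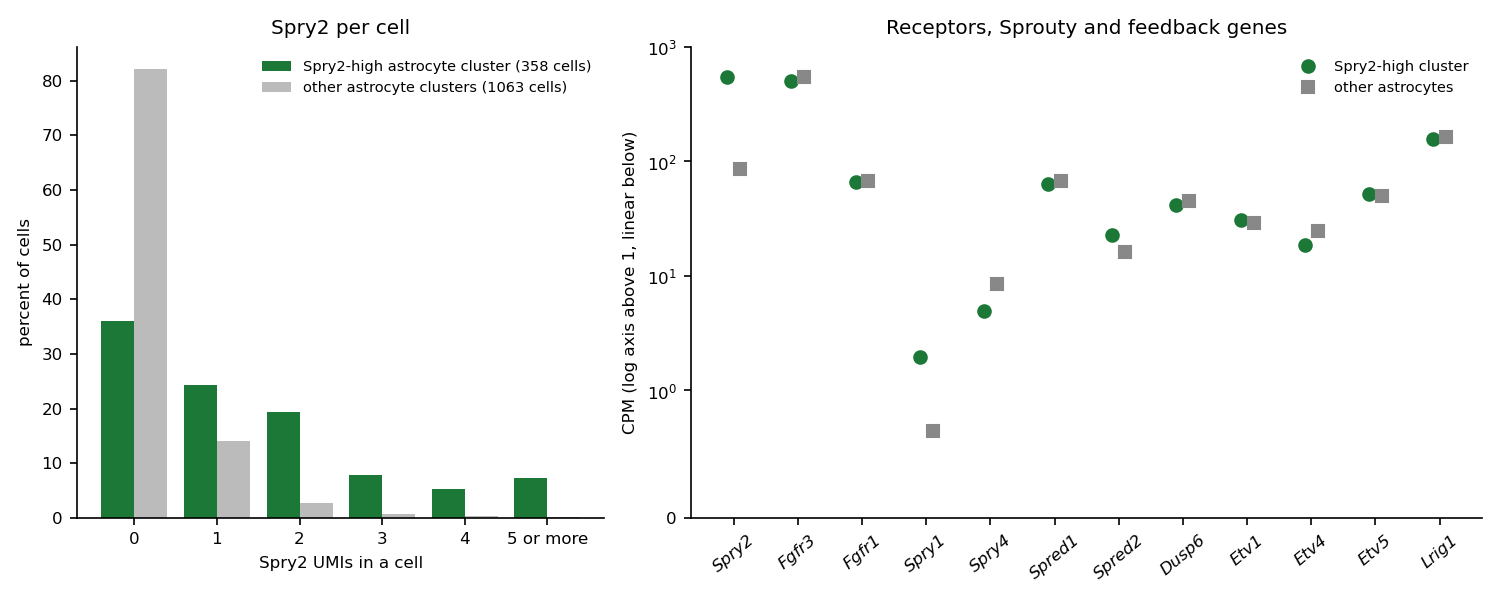
Left, the share of cells (percent) by number of Spry2 UMIs per cell in the Spry2-high cluster of 358 astrocyte-like cells and in the other 1063. Right, CPM of 12 receptor, Sprouty and feedback genes in both groups, on an axis that is logarithmic above 1 CPM and linear below, without error bars. Spry2 stands apart at 547 against 85.6 CPM, while the points of Fgfr3, Fgfr1, Dusp6 and Etv5 lie close together.

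The rest of the pathway was read from lists of 84 genes that include the 9, of which 67 had at least 50 UMIs. Of 15 other secreted ligands, 4 reached that count and 5 had no UMI. Fgf18 was at 32 CPM in tanycyte-like cells, with 8.02 CPM in the next type, and Fgf8 5.98 CPM in tanycyte-like cells. Fgf7 was found in ependymocyte-like (63.1 CPM) and VLMC-like cells (45.5 CPM) and Fgf9 in neuron-like (12.6 CPM) and pars tuberalis-like cells (11.8 CPM). The fourth receptor gene, Fgfr4, had 1 UMI, and Fgfrl1, which encodes a receptor without a kinase, was highest in OPC-like cells (33.1 CPM). The FGF homologous factors, which stay inside cells and act on sodium channels, include Fgf13, at 81.3 CPM in neuron-like cells. Spry3 was not analysed here. Among the 13 tested feedback genes, OPC-like cells were the highest type for Spred1, Spred3, Etv4, Etv5, Flrt1 and Flrt3. The share of all genes that were highest in OPC-like cells was not counted. Against all other cells the OPC-like cells were called higher for Etv4 (log2 difference 3.23), Sulf2 (2.68), Etv5 (2.65), Sdc3 and, of the members, Spry1. Dusp6, a common readout of MAP kinase activity, was highest in microglia-like cells (377 CPM) and macrophage-like cells (236 CPM), where the 9 genes were low, and Etv1 in MOL-like cells (395 CPM).

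Genes whose levels over the 23 clusters were most like those of a member were named by Pearson's r of log2(CPM + 10) among 11002 genes. The clusters share libraries and were made from these cells, so r is a description. Most like Fgf10 were Crym (0.93), Col23a1 (0.90) and Frzb (0.89), of which all 3 are among the tanycyte markers that named clusters. For Fgfr3 they were Ntsr2 (0.97), Slc7a10 (0.95) and Acsbg1 (0.95), which are astrocyte markers here. For Fgfr2 they were Tnfaip6 (0.90), S1pr5 (0.89) and Usp54 (0.89), for Fgfr1 Fstl1 (0.84), Plekhh3 (0.84) and Acbd4 (0.83), for Fgf1 Pdlim1 (0.81), Mink1 (0.75) and Csrp1 (0.74), for Spry1 Adamts1 (0.83), Map2k3 (0.80) and Cdkn2c (0.80), and for Spry2 F3 (0.80), Gm26523 (0.80) and Rab34 (0.78). Among the members, r was highest between Spry1 and Spry4 (0.72) and between Fgf2 and Fgf10 (0.71), and between ligands and receptors it was at most 0.57, for Fgf1 with Fgfr2 and for Fgf2 with Fgfr1. In single thinned cells 6 pairs of members were counted together, and for each the intervals with and without the partner overlapped. An Fgfr1 UMI was present in 4.23% (0.88% to 11.9%) of tanycyte-like cells with Fgf10 and in 7.36% (6.03% to 8.87%) of those without, and an Fgf1 UMI in 5.95% (1.96% to 13.3%) of MOL-like cells with Fgfr2 and in 4.64% (3.08% to 6.68%) of those without.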

How the data were processed

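Cells of the ME were counted in 4 libraries, which the 32 sample records list by lane and index part. Per the labels, the authors mapped the reads to mm10 and counted UMIs with Cell Ranger 2.0, and the deposited matrix holds whole counts that were not normalized. The gene annotation and the rule for calling cells are not given in the sources used here. Identifiers were matched to symbols for 27645 of 27998 genes with GENCODE vM21. The 9 genes, the pathway and marker lists and the comparisons were chosen with earlier results of these data known.

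After 3 cells with over 10% haemoglobin UMIs were set apart, counts were scaled to the median total and logged, and clusters were made with scanpy 1.11.5, scikit-learn 1.9.0 and igraph 0.11.9 (1997 of the 2000 most variable genes, the 3 members among them left out, 30 components, 15 neighbours, Leiden resolution 1, seed 0). A cluster was named when its best marker list scored at least 0.3, at least 1.5 times the next list, with 4 or more markers at least 4 times above the median cluster. The 50 doublets called by Scrublet (0.836%) were kept in the main values. UMIs were summed per type. Genes named are the 9 members, up to 4 genes per pathway list and direction past 2 log2 units (4-fold, pseudocount 10 CPM, at least 50 UMIs), and the 3 genes most like each member with at least 200 UMIs. Genes below the threshold that are given as values, and those that lead the Spry2-high cluster, were named after their values were seen. Shares were recounted with cells thinned to 1000 UMIs. Intervals at the 95% level are exact Poisson for CPM and for ratios the exact conditional form, and exact Clopper-Pearson for shares. They cover counting error only, and a count of 0 is read against a floor of 3 counts. The fold calls and the Poisson intervals were tested on simulated Poisson counts, and the clustering, naming and thinning were not.

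Alternatives were K-means with 9 clusters on 10 components, Leiden at resolution 0.5 or 2, removal of the doublets, a filter on cells (a minimum of 1000 UMIs and a maximum of 20% from mitochondrial genes), removal of each barcode number in turn, members kept among the variable genes, thinned cells, the mean over cells in place of the sum, at least 2 UMIs for a positive cell and a pseudocount of 1 CPM. Chosen after seeing the data were the pathway genes left out of the clustering, the Gfap-led, Spry2-high and Ccl4-led clusters left out in turn, and the cells with shared barcodes left out.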

Additional observations from a re-analysis of the deposited data

Results flagged for a closer look

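Of the 23 clusters, 2 passed the thresholds of no marker list and entered the comparisons only among all other cells, and in each some of the FGF genes were above 3 UMIs and above the second-highest named type. The cluster of 189 cells led by Dio3, for which the tanycyte list scored highest, had 12.6 CPM of Fgf2 (5.75 to 23.9, 9 UMIs), 27.9 CPM of Fgf10 (17.1 to 43.2, 20 UMIs) and 48.9 CPM of Fgfr3 (34.1 to 68, 35 UMIs). The Fgf10 level lay below the 52.7 CPM of tanycyte-like cells, and that of Fgfr3 far below the 534 CPM of astrocyte-like cells. The 41 cells of the other, with Ccn3 and Spon2 as leading genes, had 57.9 CPM of Fgf1 (28.9 to 104, 11 UMIs), 111 CPM of Fgfr1 (68.5 to 169, 21 UMIs), 31.6 CPM of Fgfr2 (11.6 to 68.8, 6 UMIs) and 68.5 CPM of Spry1 (36.5 to 117, 13 UMIs). Its Spry1 level was close to the 69.4 CPM of OPC-like cells, and its intervals were wide. However, 7 of its Spry1 UMIs were in 1 cell, whereas no OPC-like cell held more than 2, and the interval does not cover this. Early response genes summed to 9913 CPM in this cluster, against 4455 CPM in VLMC-like cells, and their part in these values was not tested.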

How the results depend on the processing

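On recomputation 329 values moved by less than the counting interval, or by less than 1.5 times for a count of genes, and 31 by more. All recomputed shares of cells with a UMI were among the 31. Some of the 329 could not move, such as levels in other types when the Ccl4-led cluster was left out, so the tally is no measure of stability. The highest type was the same for all 9 genes save under 3 alternatives, for 8 genes with thinned cells and without the Spry2-high cluster, and for 6 under K-means, which named no OPC-like, diffOPC-like, mural-like or neuron-like cells, so that comparisons with these types could not be made there. K-means also gave 15 in place of 27 calls of a pathway gene as higher than in all other cells. These calls were added up over the types, so a gene called in more than 1 type counted each time. A pseudocount of 1 CPM raised that count to 48, the pathway genes higher in astrocyte-like than in tanycyte-like cells from 4 to 8, those higher in OPC-like than in MOL-like cells from 12 to 27, those lower in diffOPC-like than in OPC-like cells from 10 to 17 and higher from 1 to 2, and those higher in tanycyte-like than in ependymocyte-like cells from 1 to 5. With thinned cells the genes lower in tanycyte-like than in ependymocyte-like cells went from 2 to 1. Fgf10 in tanycyte-like cells was 46 CPM without the Gfap-led cluster, and Spry2 in astrocyte-like cells 85.6 CPM without the Spry2-high cluster. The log2 ratio of Spry2 between astrocyte-like clusters, 2.68 as reported, was 2.33 with the members among the variable genes, 1.16 with the pathway genes left out of the clustering, and 0.70 to 2.78 with a barcode number left out, where 2 clusters remained.

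Shares of cells with a UMI depended on depth and on the count asked for. With at least 2 UMIs and with thinned cells, in this order, they were 2.67% and 10.7% for Fgf1 in mural-like cells, 0% and 1.87% for Fgf2 in VLMC-like cells, 3.53% and 4.92% for Fgf10 in tanycyte-like cells, 31.7% and 35.1% for Fgfr1 in VLMC-like cells, 24.2% and 12.6% for Fgfr2 in MOL-like cells, 44.6% and 40.3% for Fgfr3 in astrocyte-like cells, 3.22% and 7.72% for Spry1 in OPC-like cells, 12.8% and 15.4% for Spry2 in astrocyte-like cells, and 1.93% and 2.57% for Spry4 in OPC-like cells. No paired analysis was possible because the barcode numbers are tied to no sample or condition and no test was made. At 75 and 84 cells, mural-like and endothelial-like cells limit what their counts of 0 can show.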
